A study of Mus musculus with 8 samples.

Results

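The genes described here are 10 components of the transforming growth factor β (TGF-β) pathway: the ligands Tgfb1 and Tgfb3, the receptors Tgfbr1 and Tgfbr2, the signal transducer Smad3, the inhibitory and feedback genes Smad7, Ski and Skil, and Ltbp4 and Lrrc32, which hold the ligand in its latent form. They were chosen by symbol, and 10 of 10 symbols were found in all 8 libraries, among 53657 genes shared by the colon and culture tables. The 8 libraries are RNA sequencing read counts from mouse CD4+ T cells, and the study asked about the nuclear receptor RORα, encoded by Rora, in T helper 17 (Th17) cells and in colitis driven by T cells. Knockout cells carried Cd4_cre and Rora_fl/fl, in which Cre, driven by Cd4, deletes Rora in the T cell lineage, and control cells carried Rora_fl/fl without Cre.

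The groups were as follows. In colon, 2 knockout and 2 control libraries came from CD4+ T cells recovered 6 weeks after naive CD4+ T cells of either genotype had been given to Tcrbd-/- mice, which lack T cells of their own but keep their other cells. In culture, naive CD4+ T cells were activated for 4 days on plate-bound antibodies to CD3 and CD28, either with TGF-β and IL-6 (the TGF-β mix) or with a mix of IL-23, IL-6 and IL-1β (the IL-23 mix, which has no added TGF-β). Each combination of mix and genotype had 1 library. All cells of both experiments were then stimulated with PMA and ionomycin, which activate protein kinase C and calcium signalling, for 2 hours. The labels give neither the age of the mice nor whether libraries came from separate animals or cultures. The p-values therefore measure the spread between libraries and nothing more, and that spread may be technical.

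Library totals were 13778437 and 14440260 counts in knockout colon and 13176752 and 14967756 in control colon, and 15252700 to 15922696 in culture. Rora itself was lower in knockout colon (log2 fold change -0.94 ± 0.09 SE, adjusted p = 2.39e-05) and in knockout culture (-1.38 ± 0.07, adjusted p = 0.000404) (edgeR's quasi-likelihood test, adjusted by Benjamini-Hochberg). The fall was smaller in colon than in culture (difference 0.43 ± 0.12, adjusted p = 0.0271, same test in 1 fit of all 8 libraries). All 10 conventional T cell markers had counts in all 8 libraries. The colon libraries also held RNA of other cells, and it differed between the genotypes. The 8 fibroblast markers summed to 112 and 102 CPM (counts per 1000000 counts) in knockout colon, against 33.6 and 25.5 CPM in control colon. The 7 B and plasma cell markers summed to 653 and 741 CPM, against 195 and 189 CPM, and 4 of 5 tested were higher, beside 19.6% of all genes tested in colon. The epithelial markers summed to 112 and 114 CPM, against 48.7 and 46.0 CPM.

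As background, TGF-β is secreted bound to its own propeptide, and this latent complex is tied to matrix by latent TGF-β binding proteins such as LTBP4, or to the cell surface by GARP, the product of Lrrc32, best known from activated regulatory T cells and platelets. Once released, the ligand binds TGFBR2, which recruits and phosphorylates TGFBR1, and TGFBR1 phosphorylates SMAD2 and SMAD3. SMAD7 blocks the receptor, while SKI and SnoN, the product of Skil, are co-repressors that bind SMAD proteins in the nucleus. In CD4+ T cells TGF-β together with IL-6 gives Th17 cells, and Th17 cells can also be made without added TGF-β from IL-6, IL-1β and IL-23. The ligand TGF-β3 is known as a product of Th17 cells exposed to IL-23.

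The 3 promoters below belong to the receptors and to Smad3, the genes that receive and pass on the signal, and are shown because the cytokine mix moved Tgfbr1 one way and Tgfbr2 and Smad3 the other. Each is the stretch of 250 bases before the RefSeq start on build mm10, read 5′ to 3′ on the gene's own strand. Capitals mark CAGAC, a SMAD-binding box, and GGGCGG, a GC box, where either occurs on either strand; no window shown holds both.
Tgfbr1: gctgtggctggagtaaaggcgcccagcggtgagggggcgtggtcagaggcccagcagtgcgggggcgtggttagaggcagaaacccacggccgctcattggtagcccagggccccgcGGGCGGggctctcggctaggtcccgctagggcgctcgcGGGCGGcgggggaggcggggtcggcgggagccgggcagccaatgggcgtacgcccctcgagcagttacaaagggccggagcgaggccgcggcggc
Tgfbr2: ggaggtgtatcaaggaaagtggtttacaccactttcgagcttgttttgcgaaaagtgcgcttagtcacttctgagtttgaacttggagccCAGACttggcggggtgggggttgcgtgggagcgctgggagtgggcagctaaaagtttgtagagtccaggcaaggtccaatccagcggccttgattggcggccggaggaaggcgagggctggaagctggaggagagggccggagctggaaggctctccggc
Smad3: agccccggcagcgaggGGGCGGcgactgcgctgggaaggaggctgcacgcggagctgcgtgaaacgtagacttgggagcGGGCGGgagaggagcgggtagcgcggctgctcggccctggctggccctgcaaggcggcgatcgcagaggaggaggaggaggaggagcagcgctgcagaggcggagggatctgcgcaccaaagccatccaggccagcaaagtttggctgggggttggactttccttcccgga
The Tgfbr1 window lies at chr4:47352972-47353221 (plus strand), the Tgfbr2 window at chr9:116175364-116175613 (minus strand) and the Smad3 window at chr9:63757995-63758244 (minus strand). Tgfbr1 and Smad3 each held 2 GC boxes, at 133 and 95 bases before the start in Tgfbr1 and at 234 and 171 in Smad3, and Tgfbr2 held none. Tgfbr2 held 1 SMAD box, 160 bases before its start, and the other 2 held none. GC content was 74.8% in Tgfbr1, 58.4% in Tgfbr2 and 69.2% in Smad3, against a median of 52.4% over 32851 mouse promoter windows of the same length, of which 42.2% held a SMAD box and 32.7% a GC box. The ROR half-site AGGTCA, searched on both strands and found in 14% of all windows, was in 0 of the 6 windows available for the 10 genes (Tgfb1, Tgfbr1, Tgfbr2, Smad3, Ski and Ltbp4). These are matches of letters in 1 window per gene and were not tested against the expression values.

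Measured per kilobase of exon within each library, so that genes of different length can be set side by side, Tgfb1 had the highest level of the 10 genes in all 8 libraries and Ski came next. Tgfb1 averaged 292 CPM per kb in knockout colon and 381 in control colon, and had 126 to 139 CPM per kb in culture. The order below them depended on where the cells came from. With the TGF-β mix Tgfbr1 had rank 3, at 42.5 CPM per kb in knockout cells and 43.9 in control cells, but with the IL-23 mix it had rank 9, at 3.71 in knockout cells and 3.69 in control cells, and Smad3 had rank 3. In colon ranks 3 and 4 were held by Smad7 and Tgfbr2, with means of 47.3 and 44.9 CPM per kb in knockout colon and 43.9 and 48.2 CPM per kb in control colon; their order turned between the genotypes, but neither gene passed the genotype test described further on. Tgfb3 had rank 10 in all 4 colon libraries, rank 9 with the TGF-β mix and rank 5 with the IL-23 mix. Ltbp4 had rank 10 in all cultured libraries, with 4 to 10 counts, and its counting intervals overlapped those of Tgfb3 in the TGF-β mix.

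**Figure D1:**
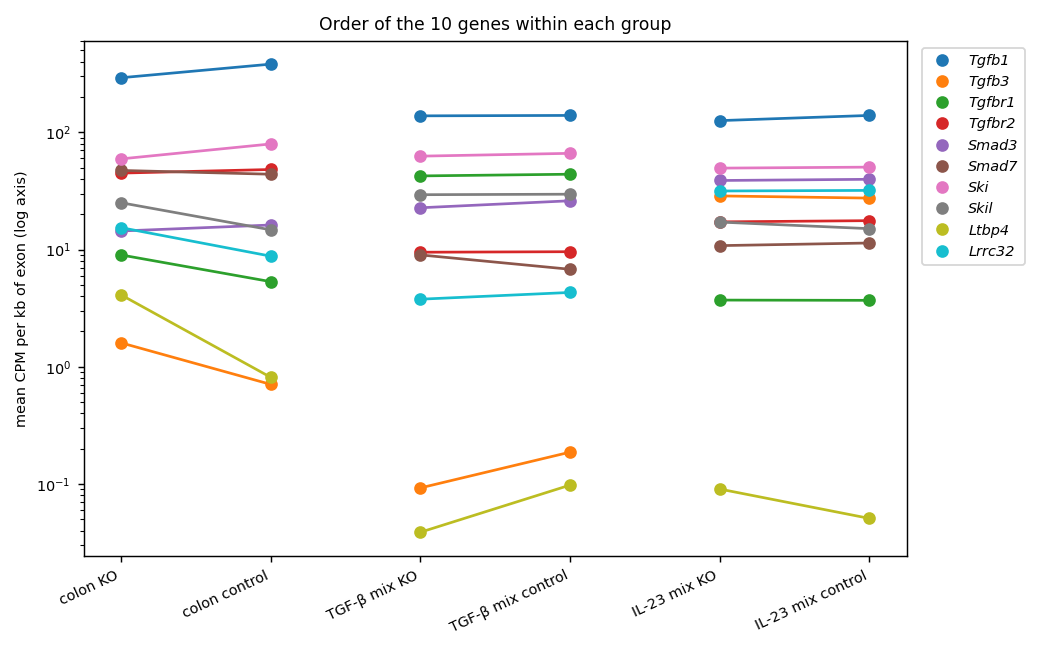
Mean level of each of the 10 genes (vertical position, CPM per kb of exon, log axis) in each group, with 2 libraries per colon group and 1 per culture group. Tgfb1 and Ski lie at the top in all groups, Tgfbr1 is highest with the TGF-β mix, and Tgfb3 and Lrrc32 are highest with the IL-23 mix; colon and culture were scaled separately.

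The first comparison asked how the genes differed between Th17 cells made with added TGF-β and Th17 cells made without it. Only the IL-23 mix held IL-23 and IL-1β, so TGF-β and these cytokines cannot be told apart here. Tgfb3 and Lrrc32 were far lower with the TGF-β mix, Tgfbr1 was more than 10 times higher, Tgfbr2, Smad3 and Smad7 were moderately lower, and Ski and Skil were moderately higher. Of the 9 genes tested, 3 rose, 5 fell and 1, Tgfb1, did not pass. Across all 13983 genes tested, 69.8% passed the same threshold of 0.05 (34.0% higher and 35.8% lower), so passing was the usual outcome in this comparison and the count of 8 of 9 says little about these genes. The median log2 fold change of the 9 genes was -0.50, beside -0.02 over all genes tested. The 2 genotypes served as repeats of the mix difference in this fit, which leaves 1 residual degree of freedom.

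Among the ligands, Tgfb3 had 5 and 10 counts with the TGF-β mix in knockout and control cells (0.313 and 0.633 CPM), against 1490 and 1411 counts with the IL-23 mix (97.0 and 92.9 CPM). The transcript was thus near the limit of detection in one mix and readily counted in the other, in both genotypes. Its log2 fold change was -7.63 ± 0.18 (adjusted p = 3.22e-08, edgeR's quasi-likelihood test), a level 198-fold lower, and only 0.365% of the genes tested had a change at least as large. The low counts make the size of the ratio uncertain: it was 309 in knockout cells (95% counting interval 132 to 954) and 147 in control cells (79.6 to 307). Tgfb1, the main TGF-β ligand of T cells, had 696 and 702 CPM with the TGF-β mix in knockout and control cells and 634 and 702 CPM with the IL-23 mix (log2 fold change 0.07 ± 0.07, adjusted p = 0.407). Per kilobase, Tgfb3 made up 0.0670% and 0.134% of the summed ligand RNA of Tgfb1 and Tgfb3 with the TGF-β mix in knockout and control cells, and 18.6% and 16.5% with the IL-23 mix. At Tgfb3, 2 noncoding transcripts on the other strand, Gm37804 and Gm48008, share 163 and 257 exon bases with it, and the sources used here do not say whether counting used strand.

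The 2 receptors moved in opposite directions. Tgfbr1, the type I receptor kinase, had 277 and 287 CPM with the TGF-β mix in knockout and control cells, against 24.2 and 24.1 CPM with the IL-23 mix. The mixes were far apart and the genotypes close together, and the ratio was 11.5 in knockout cells (counting interval 10.3 to 12.8) and 11.9 in control cells (10.7 to 13.3). The log2 fold change was 3.55 ± 0.08 (adjusted p = 2.76e-08, edgeR's quasi-likelihood test), and 3.37% of the genes tested changed at least as much. Tgfbr2, the type II receptor that binds the ligand first, had 77.7 and 78.5 CPM with the TGF-β mix in knockout and control cells, against 141 and 144 CPM with the IL-23 mix. It was lower with the TGF-β mix in both genotypes (-0.87 ± 0.07, adjusted p = 9.51e-06). The ratio of Tgfbr1 to Tgfbr2 RNA per kilobase was therefore 4.47 and 4.58 with the TGF-β mix in knockout and control cells, against 0.215 and 0.209 with the IL-23 mix.

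Smad3, which carries the signal into the nucleus, had 126 and 144 CPM with the TGF-β mix in knockout and control cells, against 215 and 220.2 CPM with the IL-23 mix. It was lower with the TGF-β mix in both genotypes, by 0.69 ± 0.07 on the log2 scale (adjusted p = 4.89e-05, edgeR's quasi-likelihood test). Its ratio of mixes was smaller in size than those of Tgfb3, Tgfbr1 and Lrrc32, and 47.4% of the genes tested changed at least as much.

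The feedback genes did not move as a block. Skil had 285 and 287 CPM with the TGF-β mix in knockout and control cells, against 166 and 146 CPM with the IL-23 mix. Ski had 348 and 368 CPM with the TGF-β mix, against 275 and 281 CPM. Both co-repressor genes were higher with the TGF-β mix, Skil by 0.88 ± 0.08 (adjusted p = 1.44e-05, edgeR's quasi-likelihood test) and Ski by 0.36 ± 0.07 (adjusted p = 0.00118). Smad7, the inhibitory SMAD gene that TGF-β is known to induce in many cells, had 40.7 and 30.7 CPM with the TGF-β mix in knockout and control cells, against 48.8 and 51.4 CPM with the IL-23 mix. It was lower with the TGF-β mix after 4 days of culture (-0.50 ± 0.12, adjusted p = 0.00534, edgeR's quasi-likelihood test), and in the knockout libraries taken alone it did not pass (-0.25, adjusted p = 0.164, in a fit of all 8 libraries that takes the spread from colon).

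Of the 2 latency genes, Lrrc32 had 17.7 and 20.2 CPM with the TGF-β mix in knockout and control cells, against 148 and 150 CPM with the IL-23 mix. The level was 7.87-fold lower with the TGF-β mix (log2 fold change -2.98 ± 0.09, adjusted p = 6.67e-08, edgeR's quasi-likelihood test). Ltbp4 had 4 and 10 counts with the TGF-β mix in knockout and control cells and 9 and 5 counts with the IL-23 mix. It was too low to be tested in culture, and at this depth no difference was detectable.

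**Figure D2:**
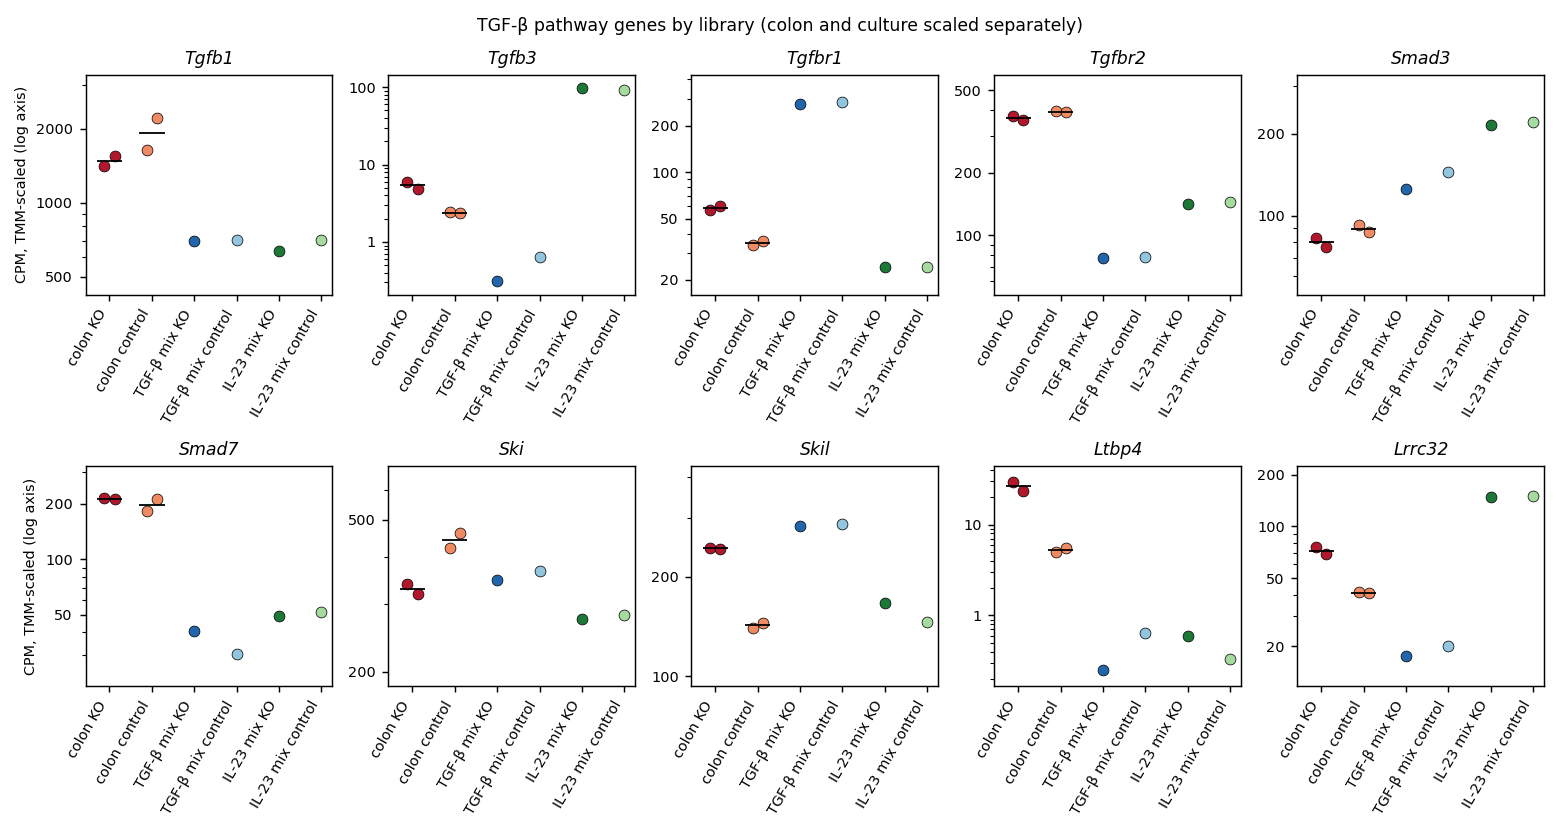
CPM of each gene in each of the 8 libraries (log axis, each panel with its own range), with the knockout left of the control in each setting and a bar at the mean of the 2 colon libraries. In culture the cytokine mix separates Tgfb3, Tgfbr1 and Lrrc32 widely while the genotypes lie close, and in colon the knockout libraries lie above the control libraries for Tgfb3, Tgfbr1, Skil, Ltbp4 and Lrrc32.

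Other genes of the pathway moved with the mix in both directions, as did all genes tested, of which 69.8% passed, 34.0% higher and 35.8% lower. The counts of each list below are to be read against those shares. Among 10 tested genes for other ligands and for latency and activation, 4 rose, 4 fell and 2 did not pass (median -0.19). Inhba, which encodes the activin A subunit, another TGF-β family ligand, had 377 and 347 CPM with the TGF-β mix in knockout and control cells, against 1412 and 1597 CPM with the IL-23 mix (-2.06 ± 0.09, adjusted p = 3.46e-07, edgeR's quasi-likelihood test). Ltbp3, a latent TGF-β binding protein gene, had 6 and 3 counts with the TGF-β mix against 171 and 167 with the IL-23 mix (-5.25 ± 0.30). Itgb1 (0.92 ± 0.07), an integrin subunit gene, and Thbs1 (2.05 ± 0.19), whose product can release latent TGF-β, rose.

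Of the 9 other receptor genes tested, 3 rose, 4 fell and 2 did not pass (median -0.28). Acvrl1, the type I receptor gene known from endothelium, was lower with the TGF-β mix, at 2.82 and 3.23 CPM in knockout and control cells against 48.2 and 46.6 CPM with the IL-23 mix (-3.97 ± 0.13, adjusted p = 1.02e-07, edgeR's quasi-likelihood test), and Eng, which encodes a co-receptor, was lower as well (-1.79 ± 0.13). Acvr2a (1.86 ± 0.12), an activin receptor gene, and Bmpr2 (1.22 ± 0.08), a bone morphogenetic protein receptor gene, rose. Among the 23 SMAD, partner and regulator genes tested, 12 rose, 7 fell and 4 did not pass (median 0.31). Smad2 (0.86 ± 0.07), the partner of Smad3, and Pmepa1 (0.88 ± 0.08), a feedback inhibitor, rose, while Runx3 (-1.77 ± 0.07), a transcription factor gene that works with SMADs, and Dab2 (-2.42 ± 0.18), an endocytic adaptor gene, fell. Smad2 and Smad3, whose products TGFBR1 phosphorylates alike, thus had opposite signs.

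Of 15 tested genes known to be induced by TGF-β in T cells or more widely, 7 rose, 6 fell and 2 did not pass (median 0.71), beside the 34.0% of all genes that were higher and the 35.8% that were lower. Ahr, which encodes the aryl hydrocarbon receptor, had 108 and 105 CPM with the TGF-β mix in knockout and control cells, against 10.4 and 11.7 CPM with the IL-23 mix (3.27 ± 0.10). Cdkn1a, a cell cycle inhibitor gene, fell (-1.68 ± 0.07, adjusted p = 3.37e-07, edgeR's quasi-likelihood test). Of 5 genes known to be repressed by TGF-β in T cells that were tested, 2 fell, 1 rose and 2 did not pass. The cytotoxicity genes Gzmb (-3.69 ± 0.08) and Prf1 (-3.53 ± 0.26) fell and Il2 rose (5.26 ± 0.09), while Tbx21, the Th1 factor gene, had a log2 fold change of -0.29 ± 0.13 (adjusted p = 0.0791).

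The markers of other cell types also differed between the mixes, but not all in 1 direction. Of all genes tested, 34.0% were higher with the TGF-β mix and 35.8% lower. Of 3 epithelial markers tested, 1 was higher with the TGF-β mix, Epcam (1.40 ± 0.14), and 2 were lower. The 1 B and plasma cell marker tested, Igkc (1.17 ± 0.43), was higher. Of 4 dendritic cell markers tested, 2 were lower and 2 did not pass. Macrophage markers, 8 listed, summed to 2.44 and 2.21 CPM with the TGF-β mix in knockout and control cells and to 32.9 and 34.8 CPM with the IL-23 mix, with 4 to 6 of the 8 at 0 in each library, and all of the 2 tested were lower. Fibroblast markers summed to 2.38 and 2.09 CPM with the TGF-β mix and to 410.1 and 446 CPM with the IL-23 mix, carried there by Lum (387 and 422 CPM) and Dcn (22.3 and 22.4 CPM), while Col3a1 was at 0 counts in all 4 cultured libraries and Col1a2 at 0 to 3 counts.

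The second comparison asked how the same genes differed in CD4+ T cells of the inflamed colon when Rora was deleted. Ltbp4 was 5.03-fold higher in knockout colon, Tgfb3, Tgfbr1, Skil and Lrrc32 were moderately higher, Ski and Tgfb1 were lower, and Tgfbr2, Smad3 and Smad7 did not pass the test. Of the 10 genes tested, 5 rose and 2 fell, beside 39.5% of all 13101 genes tested (19.6% higher and 19.9% lower). Their median log2 fold change was 0.43, beside 0.01 over all genes. In these bulk libraries, fewer cells of a type and less RNA per cell cannot be told apart.

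Among the ligands, Tgfb3 had 5.99 and 4.84 CPM in knockout colon (88 and 75 counts), against 2.44 and 2.36 CPM in control colon (30 and 33 counts). It was higher in knockout colon, though counts were low (log2 fold change 1.17 ± 0.23, adjusted p = 0.0018, edgeR's quasi-likelihood test). Tgfb1 had 1403 and 1541 CPM in knockout colon, against 1635 and 2210 CPM in control colon, so that the second control library stood well above the other 3. The fall of Tgfb1 (-0.39 ± 0.12, adjusted p = 0.0247) rested on that library, since without it the value was -0.16 with an adjusted p of 0.256. It also did not pass with library totals in place of TMM scaling (-0.19, adjusted p = 0.229). Tgfb3 made up 0.633% and 0.466% of ligand RNA per kilobase in knockout colon and 0.222% and 0.159% in control colon.

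Tgfbr1 had 57.1 and 60.5 CPM in knockout colon, against 33.5 and 36.0 CPM in control colon. It was higher in knockout colon (0.76 ± 0.09, adjusted p = 0.00011, edgeR's quasi-likelihood test). Tgfbr2 had 377 and 357 CPM in knockout colon, against 396 and 393 CPM in control colon, a log2 difference of -0.10 ± 0.08 (adjusted p = 0.308). The receptor ratio, Tgfbr1 over Tgfbr2 per kilobase, was 0.190 and 0.212 in knockout colon and 0.106 and 0.115 in control colon, so Tgfbr2 was the more abundant receptor RNA in all 4 colon libraries. Smad3 had 82.6 and 76.9 CPM in knockout colon, against 92.7 and 86.8 CPM in control colon (-0.17 ± 0.09, adjusted p = 0.136).

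The co-repressor genes moved in opposite directions in colon. Skil had 244 and 242 CPM in knockout colon, against 140.4 and 145 CPM in control colon (0.77 ± 0.08, adjusted p = 2.46e-05, edgeR's quasi-likelihood test). Ski had 339.97 and 319.7 CPM in knockout colon, against 423 and 462 CPM in control colon (-0.42 ± 0.08, adjusted p = 0.00176). The ratio of Skil to Ski per kilobase was 0.412 and 0.435 in knockout colon, against 0.190 and 0.180 in control colon. With the cytokine mix, by contrast, both genes had risen. Smad7 had 215 and 213 CPM in knockout colon, against 183 and 213 CPM in control colon (0.11 ± 0.09, adjusted p = 0.357), the first control library alone being lower.

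The latency genes were both higher. Lrrc32 had 75.5 and 68.7 CPM in knockout colon, against 41.3 and 41.1 CPM in control colon (0.81 ± 0.09, adjusted p = 6.06e-05, edgeR's quasi-likelihood test). Of 5 regulatory T cell markers, 1 rose, 3 fell and 1 did not pass, beside 19.6% of all genes tested that rose and 19.9% that fell. Ikzf2, the gene of the transcription factor Helios, was the one that rose (1.15 ± 0.10, adjusted p = 1.03e-05, edgeR's quasi-likelihood test). Foxp3, their defining factor, had 108.06 and 106 CPM in knockout colon and 103 and 99.0 CPM in control colon (0.09 ± 0.08, adjusted p = 0.414). The sum of the 5 markers was 2168 and 2334 CPM, against 2717 and 2789 CPM, and Foxp3 was a small part of it. In the cultured libraries the same sum was 4140 to 4761 CPM, so it does not count regulatory T cells. Platelet markers summed to 1.91 and 3.16 CPM in knockout colon and 2.27 and 2.14 CPM in control colon, with 4 of 6 at 0 in each library. The part of regulatory T cells and platelets in the value of Lrrc32 was not tested.

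Ltbp4 had 29.6 and 23.5 CPM in knockout colon (435 and 364 counts), against 4.95 and 5.57 CPM in control colon (61 and 78 counts). This was the widest genotype difference of the 10 genes (2.33 ± 0.16, adjusted p = 2.38e-06, edgeR's quasi-likelihood test), and 1.85% of all genes tested changed at least as much. LTBP4 is known as a matrix protein made by fibroblasts. All 8 of 8 fibroblast markers were higher in knockout colon, beside 19.6% of all genes tested there, with a median log2 fold change of 2.02. Col3a1 had 22.95 and 15.8 CPM in knockout colon, against 3.74 and 2.50 CPM in control colon (2.64 ± 0.23), and Dcn had 20.2 and 25.8 CPM, against 4.79 and 4.07 CPM (2.38 ± 0.17). Of the fibroblast markers, Dcn and Lum were also counted in T cells cultured with the IL-23 mix, as given above, while Col3a1 was not. In colon, conventional T cell markers went the other way, with 9 of 10 lower, beside 19.9% of all genes tested, and a median of -0.40. Their sums were 6879 and 6760 CPM in knockout colon against 8823 and 8596 CPM in control colon. The part of these other cells in the values of Ltbp4, Tgfb3, Tgfbr1, Skil and Lrrc32 was not tested.

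**Figure D3:**
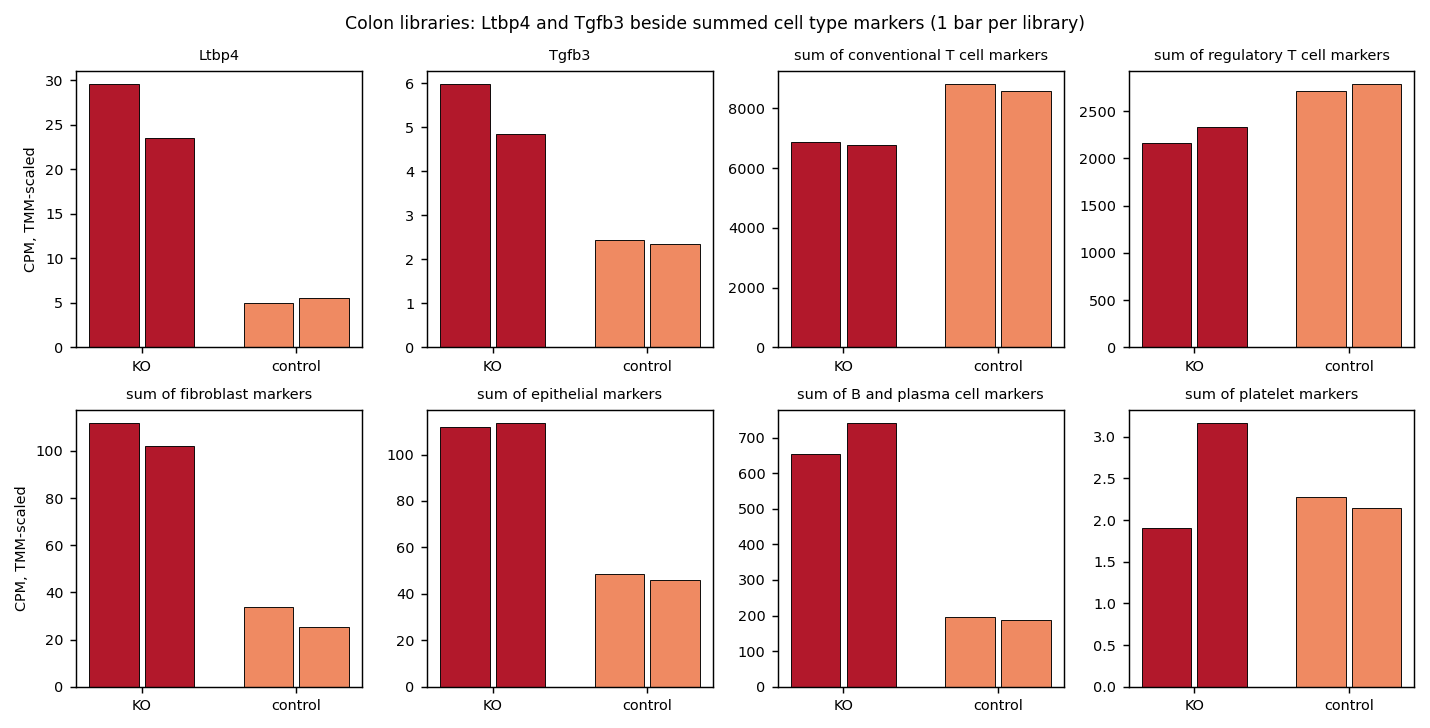
CPM of Ltbp4 and Tgfb3 and summed CPM of marker lists in each of the 4 colon libraries (linear axes from 0, knockout left of control). Ltbp4, Tgfb3 and the fibroblast, epithelial, and B and plasma cell sums are higher in both knockout libraries, and the conventional T cell sum is lower.

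Scaling each library to its 10 conventional T cell markers, an alternative chosen after seeing the data, left Ltbp4, Tgfb3, Tgfbr1, Skil and Lrrc32 higher in knockout colon. The markers were lower in knockout colon, so this scaling raises all log2 fold changes and could not have turned genes that were already higher. Under that scaling Tgfb1 (-0.04, adjusted p = 0.846) and Ski (-0.07, adjusted p = 0.484) no longer passed, Smad7 passed as higher (0.46, adjusted p = 0.00218), and Tgfbr2 was higher rather than lower (0.25, adjusted p = 0.0155). It moves the median of all genes to 0.36, against which these values should be read.

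Among other pathway genes in colon, 10 genes for ligands, latency and activation were tested, and 6 rose, 2 fell and 2 did not pass (median 0.49). This count and those that follow are to be read against all genes tested in colon, of which 19.6% were higher and 19.9% lower. Furin, which encodes the protease that cuts the TGF-β precursor, fell, with 3038 and 2491 CPM in knockout colon against 6112 and 5978 CPM in control colon (-1.13 ± 0.10, adjusted p = 8.89e-06, edgeR's quasi-likelihood test). Itgb8, an integrin subunit gene whose product activates latent TGF-β, rose, with 20.4 and 21.4 CPM against 7.80 and 10.1 CPM (1.22 ± 0.15, adjusted p = 9.28e-05), and so did Itgb1 (0.70 ± 0.09) and Thbs1 (1.18 ± 0.17). Of 8 other receptor genes tested, 5 rose and 3 did not pass (median 0.79). The leading ones were Acvr2a (0.98 ± 0.11), Bmpr2 (0.99 ± 0.16), Eng (1.42 ± 0.31) and Acvrl1 (1.44 ± 0.35), of which Eng and Acvrl1, both known from endothelium, had at most 3.95 CPM in a colon library. Of 4 endothelial markers tested, 2 rose and 2 did not pass (median 0.93): Cdh5 (2.74 ± 0.58, adjusted p = 0.00334) and Tie1 (1.60 ± 0.47, adjusted p = 0.0182) were higher, by edgeR's quasi-likelihood test. Pecam1 (-0.06 ± 0.08) and Egfl7 (0.27 ± 0.49) did not pass. The 6 markers summed to 103 and 99.3 CPM in knockout colon and to 105 and 99.8 CPM in control colon. In cultured T cells the same sum was 21.4 and 17.1 CPM with the TGF-β mix in knockout and control cells. With the IL-23 mix it was 76.9 and 69.4 CPM, so the sum does not measure endothelium alone. The part of endothelial RNA in the values of Eng and Acvrl1 was not tested.

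Of 22 SMAD, partner and regulator genes tested in colon, 6 rose, 5 fell and 11 did not pass (median 0.13). Across all genes tested in colon 39.5% passed, 19.6% higher and 19.9% lower, and the counts of each list here are to be read against those shares. Usp15, a deubiquitinase gene whose product acts on the receptor complex, rose (0.82 ± 0.09), while Runx3 (-0.47 ± 0.09), Fkbp1a (-0.41 ± 0.07), whose product binds the type I receptor, and Tgif1 (-0.33 ± 0.08), a co-repressor gene, fell. TGF-β induced genes split into 8 that rose, 3 that fell and 6 that did not pass of 17 tested (median 0.34), led by Nt5e, the gene of CD73, with 218 and 228 CPM in knockout colon against 103 and 100.1 CPM in control colon (1.13 ± 0.08, adjusted p = 2.37e-06, edgeR's quasi-likelihood test). Il9 (1.55 ± 0.19), a cytokine gene, rose and Cdkn1a (-0.65 ± 0.08) fell. All 8 of the genes known to be repressed by TGF-β in T cells passed, 4 higher and 4 lower, with Gata3 (0.98 ± 0.08) and Il2 (0.59 ± 0.11) rising and Prf1 (-0.77 ± 0.09) and Eomes (-0.73 ± 0.12) falling.

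The last genotype comparison asked whether the same genes differed with Rora deletion in cultured Th17 cells, with the 2 mixes as repeats. Of the 9 genes tested, 0 passed with edgeR's quasi-likelihood test or with DESeq2, beside 0.0286% of all 13983 genes (4 genes, 0.0143% higher and 0.0143% lower; 500 had an unadjusted p under 0.05 with edgeR). Their log2 fold changes lay between -0.11 (Smad3) and 0.15 (Smad7), with a median of -0.03 beside 0.00299 over all genes. A p that misses the threshold does not show that the genotypes were alike. Tgfb3 had 5 counts in knockout and 10 in control cells with the TGF-β mix, too few to give its ratio of 0.495 a narrow interval (0.133 to 1.59), and 1490 and 1411 counts with the IL-23 mix, a ratio of 1.04 (0.970 to 1.12). Smad7 had 649 counts in knockout and 485 in control cells with the TGF-β mix, a ratio of 1.33 (counting interval 1.18 to 1.49), and 750 and 781 counts with the IL-23 mix, a ratio of 0.95 (0.858 to 1.05). The ratio of Smad3 to Smad7 per kilobase was 2.52 in knockout and 3.84 in control cells with the TGF-β mix, and 3.59 and 3.49 with the IL-23 mix. Smad3 with the TGF-β mix had a knockout to control ratio of 0.872 (0.821 to 0.926), Skil with the IL-23 mix one of 1.14 (1.07 to 1.21), and Tgfb1 with the IL-23 mix one of 0.903 (0.879 to 0.928). These intervals cover counting error only, and none of these single pairs has a replicate. In the other pathway lists 1 gene passed in this fit, Gzmb, the granzyme B gene (0.77 ± 0.08, adjusted p = 0.033, edgeR's quasi-likelihood test), which was higher in knockout cells with both mixes.

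**Figure D4:**
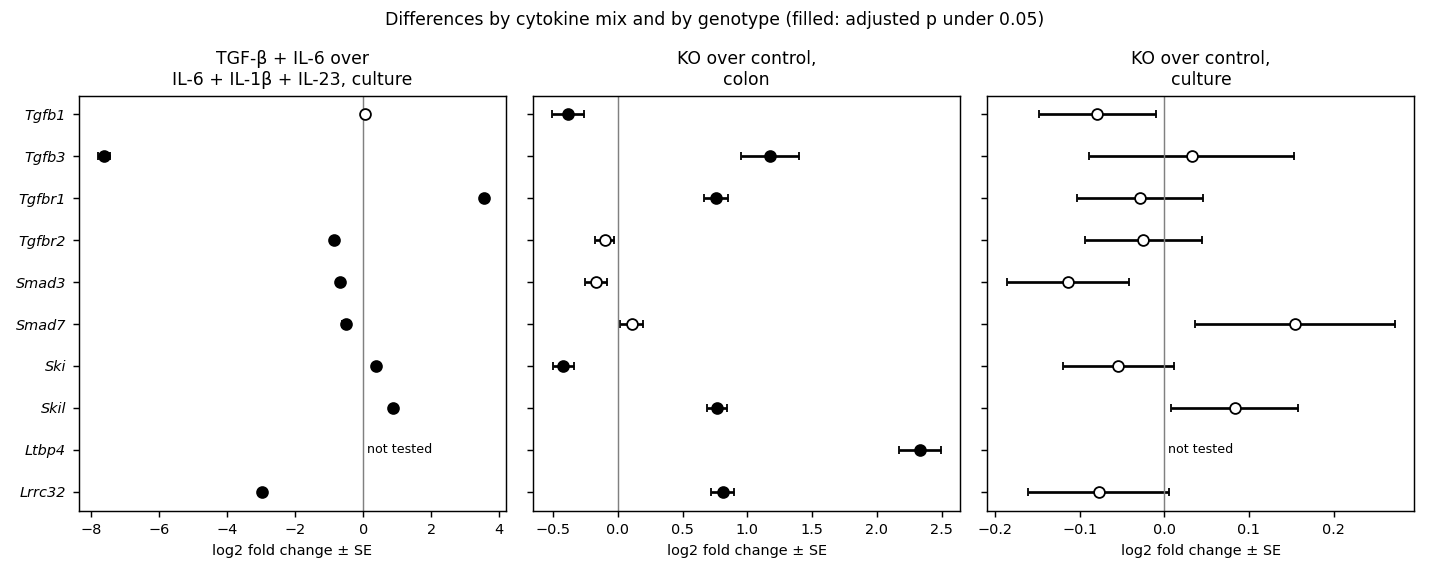
Log2 fold change ± SE of each gene by cytokine mix (TGF-β mix over IL-23 mix) and by genotype (knockout over control) in colon and in culture, with filled points where the adjusted p is under 0.05; the panels have different horizontal scales. The mix panel spans -7.63 for Tgfb3 to 3.55 for Tgfbr1, the colon panel reaches 2.33 for Ltbp4, and no culture genotype point is filled.

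The genotype difference in colon was then set against that in culture in 1 fit of all 8 libraries, which tests the difference itself with 3 residual degrees of freedom. Of the 10 genes, 6 passed, 5 with a higher and 1 with a lower genotype effect in colon, beside 17.3% of all 14886 genes tested (7.73% higher and 9.57% lower). Their median was 0.31, beside 0.01 over all genes. Tgfbr1 (0.78 ± 0.12, adjusted p = 0.000773), Skil (0.68 ± 0.11, adjusted p = 0.00106) and Lrrc32 (0.89 ± 0.13, adjusted p = 0.00045) had knockout effects that were more positive in colon, by edgeR's quasi-likelihood test. Tgfb3 did so as well (1.15 ± 0.26, adjusted p = 0.00722), as did Ltbp4 (2.54 ± 0.62, adjusted p = 0.0124), though the culture side of Ltbp4 rests on 4 to 10 counts. Ski had a more negative effect in colon (-0.37 ± 0.11, adjusted p = 0.0314), and this was lost without the second control colon library (-0.31, adjusted p = 0.109) or the second knockout colon library (-0.33, adjusted p = 0.105). Tgfb1 (-0.31, adjusted p = 0.211), Tgfbr2 (-0.08, adjusted p = 0.658), Smad3 (-0.06, adjusted p = 0.786) and Smad7 (-0.05, adjusted p = 0.87) did not pass. Colon and culture also differ in tissue, time and cell makeup, which cannot be told apart from the setting here.

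Across the 8 libraries, which fall into colon, TGF-β mix and IL-23 mix, the genes most like Tgfb3 by Pearson's r of log2(CPM + 1) were Ppm1j (0.997), Sp140 (0.996) and Paip2 (0.994). Those most like Tgfbr1 were Rnf168 (0.9996), Dhx15 (0.995) and Rbbp7 (0.993), and those most like Lrrc32 were H2-Ab1 (0.995), Wdr44 (0.994) and Crebl2 (0.994). The profile of Ltbp4 was nearest to Col3a1 (0.994), a fibroblast collagen gene, Hdc (0.993) and Iglc1 (0.992), an immunoglobulin light chain gene. That of Smad3 was nearest to Rhoq (0.998), Ndst1 (0.998) and Il23r (0.995), and that of Tgfbr2 to Saraf, Irf2 and Pear1 (0.999 each). Tgfb1 was nearest to Dnajb9 (0.999), Smad7 to Fbxo28 (0.999), Ski to Ndufv1 (0.996) and Skil to Baz1a (0.992). Among the 10 genes themselves, Tgfb3 and Lrrc32 had an r of 0.916, Tgfbr1 and Lrrc32 one of -0.888, and Tgfbr2 and Smad7 one of 0.983. These values describe 3 clusters of libraries that share their source and are given without a p.

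On build mm10, in the GENCODE M21 annotation, the genes lie on 6 chromosomes. Tgfb1 lies at chr7:25687002-25705077, Ltbp4 at chr7:27305136-27337692 and Lrrc32 at chr7:98489283-98502181. Tgfbr1 lies at chr4:47353222-47414931 and Ski at chr4:155154075-155222592. Tgfbr2 lies at chr9:116084293-116175360 and Smad3 at chr9:63646767-63757994. Tgfb3 lies at chr12:86056745-86079041, Smad7 at chr18:75367529-75395935 and Skil at chr3:31095058-31122577.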

How the data were processed

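Per the file headers, the values the authors deposited are unnormalized read counts, in 1 table for each of 8 libraries. The submitters' processing notes name featureCounts, Bowtie2, Trim Galore, DESeq2, edgeR and build mm10. The sources used here give no roles, versions or strand setting. The table of a colon library held 54446 entries and that of a cultured library held 55341, joined by symbol; 27 and 26 symbols had been turned into dates and were not joined.

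Counts were filtered with filterByExpr, scaled by TMM and tested by the quasi-likelihood F-test of edgeR 4.0.16 in R 4.3.3. Adjustment was by Benjamini-Hochberg over all genes tested, with a threshold of 0.05. Colon was fitted alone (2 against 2). Culture was fitted with terms for mix and genotype. SE is the size of the log2 fold change divided by the square root of F. CPM is TMM-scaled, separately in colon and culture. CPM per kb uses GENCODE M21 exon length. Counting intervals of 95% are exact and cover counting error only. The scripts were tested on simulated data. Replicate libraries of a colon group differed by more than counting error (chi-square per gene 5.03 in knockout and 6.85 in control). Promoters are RefSeq sequences on GRCm38.p6, found for 6 of the 10 genes.

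The genes, the lists of other pathway genes and markers, and the tests were chosen with earlier results of these data known. From each pathway list, up to 4 tested genes with the smallest p-values per comparison were named, except that some are not reported here; Gm37804, Gm48008 and marker genes named singly were chosen after their values were seen. The list of TGF-β induced genes holds 1 gene under 2 names (Ctgf and Ccn2). Alternatives were library totals, DESeq2 size factors, no filter, a stricter filter (5 CPM in 2 libraries), DESeq2 1.42.0, leaving out each colon library, a replicate block, all 8 libraries as 6 groups, each mix or genotype alone, and T cell marker totals.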

Additional observations from a re-analysis of the deposited data

Results flagged for a closer look

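For 6 of the 10 genes the knockout effect in colon differed from that in culture by the test of the difference itself, on the log2 scale: Tgfb3 by 1.15, Tgfbr1 by 0.78, Skil by 0.68, Ltbp4 by 2.54, Lrrc32 by 0.89 and Ski by -0.37. Beside these values, the fibroblast marker sum in colon was 112 and 102 CPM in knockout and 33.6 and 25.5 CPM in control libraries. In culture the same sum was 2.38 CPM in knockout and 2.09 CPM in control cells with the TGF-β mix, and 410.1 and 446 CPM with the IL-23 mix, carried there by Lum and Dcn, while Col3a1 had 0 counts in each cultured library. Ltbp4 had 435 and 364 counts in knockout colon and 61 and 78 in control colon, against 4 to 10 in each cultured library, so its difference rests on the colon side. Tgfbr1, Skil and Lrrc32 had at least 282 counts in each library. What moved these genes in colon was not tested.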

How the results depend on the processing

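In colon, Tgfb3, Tgfbr1, Skil, Ltbp4 and Lrrc32 kept their direction and passed under all 12 alternatives, with Ltbp4 between 2.13 and 2.68. Over the 10 genes, 112 of 120 values kept their call. A value that passed in neither fit was counted as kept even where its sign turned. Such turns included Tgfbr2 (0.09) and Smad3 (0.02) with library totals, and Smad7 (-0.01) without the first control colon library. Of the 12 alternatives, T cell marker totals could only raise the log2 fold changes. Tgfbr2 reversed to 0.25 with T cell marker totals, from a value that had not passed: that scaling moved the median of all genes to 0.36, from 0.01, so Tgfbr2 stayed below the median. Besides the losses given with the results, Tgfb1 did not pass with DESeq2 (-0.39, adjusted p = 0.197), and Smad7 passed with library totals (0.30, adjusted p = 0.0176). Library totals moved the median of all genes in colon to 0.205 and the share of calls that were higher to 77.2%, against 49.6%; T cell marker totals moved that share to 90.3%. For the difference between colon and culture, library totals moved it to 80.0%, against 44.7%, and Ski did not pass (-0.18, adjusted p = 0.281). There Tgfb1 passed without the first control colon library (-0.52, adjusted p = 0.00889) and with no filter (-0.32, adjusted p = 0.0405). For the mix, 71 of 72 values kept direction and call, the exception being Smad7 in knockout libraries. For genotype in culture 72 of 72 values kept their call, which was not passed, but some signs turned. Tgfb3 was -0.99 and Skil -0.01 in the TGF-β mix alone, against 0.03 and 0.08 in the main fit. Smad7 was -0.08 in the IL-23 mix alone, against 0.15.

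Leaving out 1 colon library gave 4198 to 5133 calls in colon against 5173, and 1676 to 2452 for the difference between colon and culture against 2575. The lowest, 1676, came without the second knockout library. Genotype calls in culture, 4 in all, became 9 with library totals, 9 with DESeq2 size factors, 0 with no filter (472 at an unadjusted p under 0.05), 8 with the stricter filter, 7 with DESeq2, 16 with 8 libraries as 6 groups, 7 in the TGF-β mix alone and 16 in the IL-23 mix alone. Of the TGF-β induced genes, 0 passed there, but 1 did under 6 of the 8 alternatives. Without a filter Rora itself had an adjusted p of 0.0943 there. The labels do not say that replicate numbers pair the colon libraries (correlation of deviations 0.153); with the replicate block 6230 genes passed, 7 of the 10 pathway genes among them. The 1 to 2 libraries per group limit all tests, and Ltbp4 in culture and Tgfb3 in the TGF-β mix are limited by counts of 10 or fewer.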

Other observations

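Furin, the gene of the protease that cuts the TGF-β precursor, had the lower level in knockout libraries of both experiments. In culture it had 1228 CPM in knockout and 1545 CPM in control cells with the TGF-β mix, and 1146 and 1443 CPM with the IL-23 mix, a log2 fold change of -0.33 ± 0.07 that did not pass (adjusted p = 0.6, edgeR's quasi-likelihood test). The knockout effect on Furin was more negative in colon (difference -0.80 ± 0.13, adjusted p = 0.00106).

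Nt5e, the gene of CD73, had genotype differences of opposite sign in culture and colon. It had 55.9 CPM in knockout and 241 CPM in control cells with the TGF-β mix, and 21.5 and 38.1 CPM with the IL-23 mix. The culture difference did not pass (-1.60 ± 0.24, adjusted p = 0.21, edgeR's quasi-likelihood test), while Nt5e rose in knockout colon. The difference between colon and culture was 2.70 ± 0.25 (adjusted p = 3.07e-05, edgeR's quasi-likelihood test). Inhba was abundant in culture (347 to 1597 CPM) and low in colon, at 5.38 and 5.23 CPM in knockout and 2.92 and 1.64 CPM in control libraries.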
